A study of Mus musculus with 49 samples.

Results

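The nuclear-encoded genes of oxidative phosphorylation were examined in single cortical neurons of the mouse. They were chosen by name, as every gene of the table whose symbol begins with Nduf, Cox4 to Cox8, Uqcr or Atp5, or is Sdha, Sdhb, Sdhc or Sdhd. This gave 84 of the 9020 genes listed. Of the 84, 74 encode subunits of respiratory complexes I to V, 9 encode factors or proteins of complex I assembly, and 1, Atp5s, encodes factor B, which is not counted here as a subunit. The data are 49 Patch-seq transcriptomes, in which the content of a cell is drawn into a recording pipette and sequenced. All cells came from wild-type CD1 mice, were labelled with FlashTag at embryonic day E13.5 and were collected at P7 from the primary somatosensory area. FlashTag is a dye injected into the ventricle that marks progenitors dividing at its surface, so the cells share a time of birth. There is 1 condition and no control group. The cells were sequenced in 5 library pools of 12, 9, 9, 9 and 10 cells. The labels name no animal, so the 49 cells count as 1 sample, and nothing was tested between them.

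Oxidative phosphorylation transfers electrons from NADH and succinate to oxygen through complexes I to IV of the inner mitochondrial membrane, and complex V, the ATP synthase, uses the resulting proton gradient to make ATP. Complexes I, III, IV and V are built from subunits of both genomes, while complex II is encoded by the nucleus alone. Neurons rely on this pathway to fuel ion pumping and synaptic transmission.

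Levels are given in RPM, the reads of a gene scaled to 1000000 reads of its cell. The 49 libraries held 209850 to 35342325 reads with a median of 1240101, so that 1 read was worth 0.0283 to 4.77 RPM. Molecules were not tagged before amplification, so several reads may stem from 1 molecule, and intervals cover counting error only. All 49 cells had at least 2 of 7 neuron markers at 10 RPM or more, such as Snap25 and Stmn2, with a summed level of the list of 1041 to 15330 RPM. Markers of other cells were also present. At least 2 markers at 10 RPM or more were found for inhibitory neurons in 17 cells, for astrocytes in 30, for the oligodendrocyte lineage in 17 and for microglia in 9. The astrocyte count rested mainly on Apoe and Aldoc, which reached 10 RPM in 40 and 25 cells. Slc1a3 did so in 13 cells, Aqp4 and Aldh1l1 in 6 each and Gja1 in 4. Hemoglobin took 1% or more of the reads in 8 cells and 68.8% in the highest. Cells of a pool were multiplexed, and 47 of the 49 cells carry a library number that recurs in another pool. None of the 1176 pairs of cells held identical values.

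Subunit genes are known for promoters that bind NRF1, GABP and related ETS factors, and YY1. RefSeq promoters (GRCm38.p6, 250 bases before to 50 bases after the start) were matched for 71 of the 84 genes. The motifs searched were CGCANGCGC for NRF1, CCGGAAG for GABP/ETS and AANATGGC for YY1, on both strands. The promoters shown are those of Ndufa4, Atp5k and Atp5h, which are members of the pairs that varied most closely together, of Cox6a1, the common isoform of its subunit, and of Sdha, which varied least with the others among the subunits that had a promoter. Each line holds the 150 bases before the start, with exact matches in capitals.
Ndufa4, chr6:11907451-11907600, minus strand: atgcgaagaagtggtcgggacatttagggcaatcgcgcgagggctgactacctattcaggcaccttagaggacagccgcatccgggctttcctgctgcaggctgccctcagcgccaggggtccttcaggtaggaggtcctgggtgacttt
Atp5k, chr5:108434400-108434549, minus strand: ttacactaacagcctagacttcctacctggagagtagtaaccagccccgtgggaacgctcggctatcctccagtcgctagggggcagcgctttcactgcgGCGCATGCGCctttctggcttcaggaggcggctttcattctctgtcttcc
Atp5h, chr11:115419920-115420069, minus strand: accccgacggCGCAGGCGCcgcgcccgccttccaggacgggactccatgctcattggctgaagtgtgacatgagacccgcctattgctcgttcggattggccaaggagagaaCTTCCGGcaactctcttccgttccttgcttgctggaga
Cox6a1, chr5:115348959-115349108, minus strand: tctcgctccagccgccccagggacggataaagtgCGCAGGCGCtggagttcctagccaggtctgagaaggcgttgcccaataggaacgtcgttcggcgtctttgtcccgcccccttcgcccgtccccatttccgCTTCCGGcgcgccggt
Sdha, chr13:74350241-74350390, minus strand: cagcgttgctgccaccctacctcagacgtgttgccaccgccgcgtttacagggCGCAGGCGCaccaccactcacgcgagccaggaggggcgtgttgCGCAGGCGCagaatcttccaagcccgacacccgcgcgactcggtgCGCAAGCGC

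No exact match lay in the stretch shown for Ndufa4. The 10 capitals of Atp5k are overlapping NRF1 matches on the opposite strands, since its letters read alike on both. Atp5h and Cox6a1 each held an NRF1 match followed by a GABP/ETS match nearer to the start. Sdha held 3 NRF1 matches. Over the 300 bases, the NRF1 letters were found in 24 of 71 promoters (33.8%, exact binomial 95% interval 23% to 46%), beside 7.12% of all 27025 genes with a promoter and 17.3% of the 7044 listed in the table. GABP/ETS matches were found in 18 (25.4%), beside 9.93% of all genes and 20.9% of the listed genes. YY1 matches were found in 20 (28.2%), beside 6.96% and 10.9%. At least 1 of the 3 motifs was present in 50 promoters (70.4%), beside 20.8% and 40.6%, and no promoter of the set held all 3. By complex, YY1 letters were present in 15 of 39 promoters of complex I genes, assembly factors included. They were present in 4 of 14 of complex V, Atp5s included, and in 1 of 10 of complex IV. NRF1 letters were present in 11, 7 and 1 promoters of complexes I, V and IV. In complexes II and III, NRF1 letters were present in 2 of 3 and 3 of 5 promoters, and YY1 letters in none. The 21 subunits with an NRF1 match had a median level of 496 RPM and the 41 without had 356 RPM, while their median rank correlation with other subunits over cells was 0.28 and 0.30. A match of letters is a description and not a binding site.

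Together the subunits took 4.27% of a cell's reads in the median (1.25% to 6.48%). Their summed level was lowest at 12527 RPM, had a median of 42696 RPM and was highest at 64815 RPM. Complex I contributed the most, with a median sum of 15181 RPM (3940 to 26928) over 35 listed subunits. The ATP synthase followed with 12005 RPM (2359 to 16993) over 14 subunits, and cytochrome c oxidase, complex IV, with 9400 RPM (1971 to 28523) over 13. Complex III, the cytochrome bc1 complex, had 4496 RPM (854 to 9081) over 8 subunits, and complex II, succinate dehydrogenase, had 930 RPM (47.7 to 1709) over 4. The median share of a cell's subunit RPM was 35.4% for complex I, 28.6% for V, 22.3% for IV, 10.8% for III and 2.29% for II. Per length, the median over the subunits of a complex was 879 RPM/kb for IV, 635 for V, 609 for III, 381 for I and 104 for II. A sum grows with the number of listed subunits, and Ndufs5, Ndufb1, Cox4i2, Cox6b2, Cox7a1, Cox7c, Cox8b, Cox8c, Ndufa4l2 and Atp5g2 were not analysed here.

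**Figure D1:**
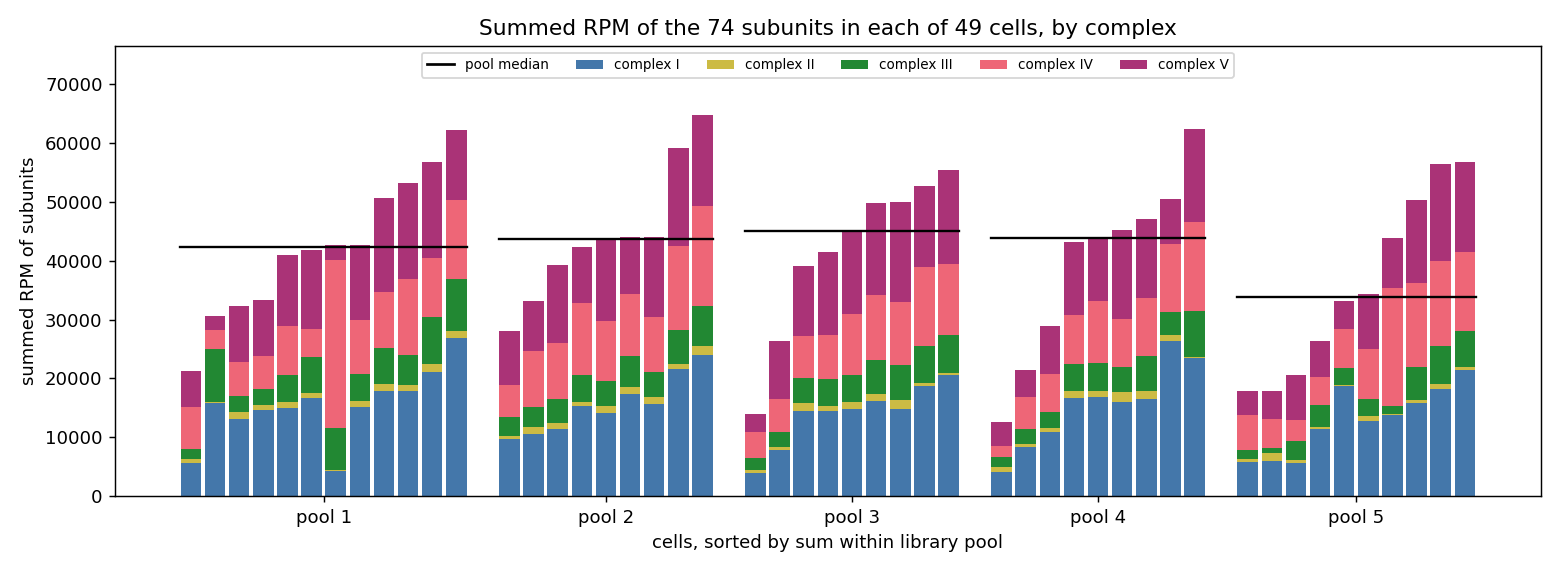
Summed RPM of the 74 subunits in each of the 49 cells (bars, 1 per cell), stacked by complex and sorted within library pool, with the median of each pool as a black line. Cells of every pool differ more among themselves than the pool medians do, and 1 cell of pool 1 is mostly complex IV.

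For pools 1 to 5 the median sum was 42287, 43628, 45076, 43905 and 33762 RPM, and the pool held 4.84% of the variance between cells. Pool 5, which had the lowest median depth, also had the lowest median for 39 of the 70 subunits with a median of at least 10 RPM (55.7%), beside 43.7% of all 3442 genes at that level. The gap was wide for a few of them. The median of Uqcrh, the hinge protein of complex III, was 36.8 RPM in pool 5 and 440 to 695 RPM in the other pools. That of Sdhd, a membrane anchor of complex II, was 23.6 RPM in pool 5 and 177 to 296 RPM elsewhere. Both were picked here for this gap. The sum of all subunits varied little with depth (rho 0.09 with total reads), whereas the complex II sum had a rho of 0.47 with total reads and the complex V sum of 0.33. For complexes I, III and IV it was 0.05, 0.01 and -0.095. With hemoglobin the sum of all subunits had a rho of -0.20, and the lowest by complex was -0.41 for V.

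A read in every one of the 49 cells was found for 55 of the 84 genes (65.5%), beside 8.1% of all 9020 genes, and all 55 were subunits. At the stricter limit of 10 RPM in every cell, 27 genes passed, beside 2.2% of all genes. The number of members with a read ranged from 69 to 84 per cell. A median of at least 10 RPM was reached by 75 of the 84, beside 38.2% of all genes, and one of at least 100 RPM by 66, beside 13.7%. Genes entered the table only if they reached 100 RPM in at least 2 cells, so every member had passed that limit.

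**Figure D2:**
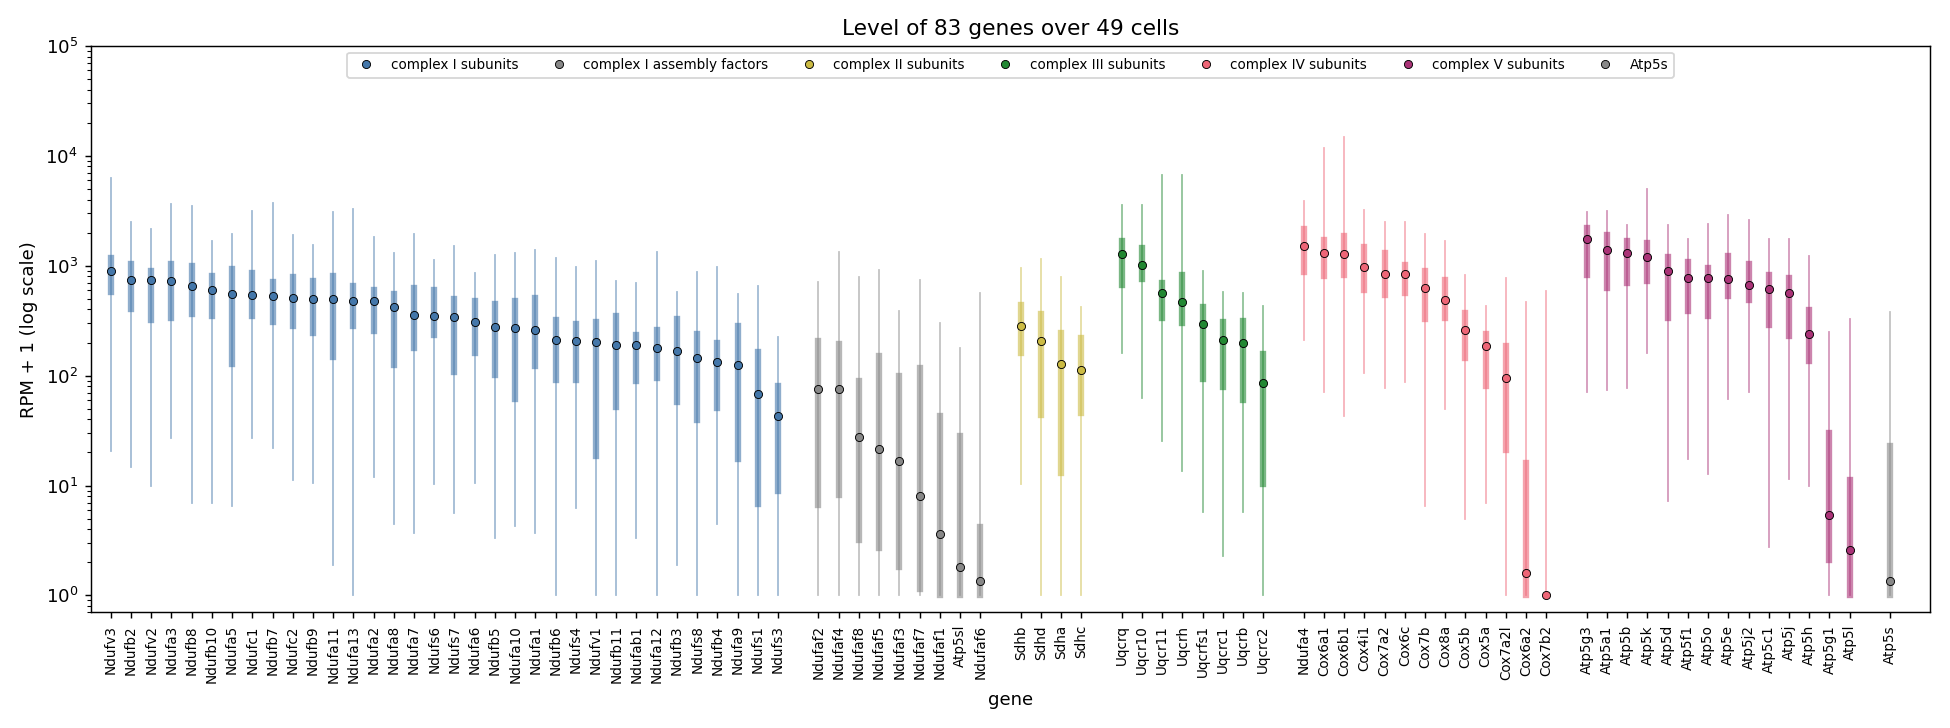
Level of 83 of the genes over 49 cells (RPM + 1, log scale): the point is the median, the thick bar the middle 50% of cells and the thin line the lowest to the highest cell, coloured by complex. Most subunits have medians of 100 to 1732 RPM, and those of the gray assembly factors stay below 100.

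The kit captures the 3′ ends of transcripts, so a level should not grow with length, but levels of different genes are given beside their value per kilobase of transcript (RPM/kb). Dividing by length therefore raises short genes. The length is that of a single annotated transcript per gene, the longest where the annotation did not decide, so ranks per kilobase depend on this choice. The order of the 73 subunits with a known length had a rho of 0.87 between the scales, and RPM had a rho of -0.20 with length.

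Complex I oxidises NADH and passes its electrons to ubiquinone. The 6 nuclear core subunits described here, most of which hold the flavin or iron-sulfur clusters, had a median level of 171 RPM (131 RPM/kb), and its 28 supernumerary subunits had 389 RPM (507 RPM/kb). Among the core subunits, Ndufv2, an iron-sulfur protein, ranged from 8.81 to 2159 RPM with a median of 736. Its partner Ndufv1, which binds NADH, ranged from 0 to 1096 RPM with a median of 199. Both make up the tip of the peripheral arm, yet Ndufv1 was without a read in 4 cells and Ndufv2 in none. Ndufs7, which carries the last iron-sulfur cluster before ubiquinone, had a median of 337 RPM (4.66 to 1526). Ndufs8, another iron-sulfur protein, had 143 RPM (0 to 872). The lowest core subunits were Ndufs1, the largest of them, with 66.9 RPM (0 to 658), and Ndufs3 with 41.96 RPM (0 to 223). Per kilobase the same pair was lowest, at 25.1 and 40.1 RPM/kb.

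The accessory subunits of complex I were led by Ndufv3, with a median of 892 RPM (19.8 to 6319), Ndufb2 with 745 RPM (13.9 to 2489) and Ndufa3 with 718 RPM (25.8 to 3644). Per kilobase Ndufa3 was the highest of complex I at 1393 RPM/kb, beside 564 for Ndufv3 and 170 for Ndufb2. The transcript taken for Ndufb2 was 4371 bases long and that of Ndufa3 515. The lowest accessory subunit was Ndufa9, with 123 RPM (0 to 547). Of the 35 subunits of the complex, 33 had a median of at least 100 RPM and 25 had a read in every cell.

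The assembly factors of complex I, which help to build it but leave before it is complete, were lower and patchier. Their 9 medians lay between 0.36 and 74.8 RPM, with a median of 15.7 RPM (10.6 RPM/kb), and none had a read in every cell. Ndufaf2 ranged from 0 to 705 RPM with a median of 74.8, and Ndufaf4 from 0 to 1346 RPM with a median of 74.2. Ndufaf8 had a median of 26.6 RPM (0 to 793), Ndufaf5 of 20.7 (0 to 918) and Ndufaf3 of 15.7 (0 to 384). The levels of Ndufaf7, Ndufaf1, Atp5sl and Ndufaf6 had medians of 7.06, 2.66, 0.81 and 0.36 RPM, and their highest cells lay at 748, 298, 177 and 558 RPM. Atp5sl takes part in complex I assembly despite its name. Ndufaf7 shares a near-identical stretch of its 3′ end with transcripts of 32 other genes, none of them annotated as a pseudogene, so its reads may be split.

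Complex II links the citric acid cycle to the respiratory chain. Its iron-sulfur subunit Sdhb had the highest median, 281 RPM (9.26 to 960), and was the only one of its 4 subunits with a read in every cell. The membrane anchors Sdhd and Sdhc had 204 RPM (0 to 1142) and 112 RPM (0 to 423). The flavoprotein Sdha, which oxidises succinate, had 126 RPM (0 to 785). Per kilobase the order was Sdhb 246, Sdhd 165, Sdha 43.4 and Sdhc 35.3 RPM/kb, so Sdha and Sdhc exchanged places.

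In complex III the small accessory subunits were highest. Uqcrq ranged from 160 to 3560 RPM with a median of 1288, and Uqcr10 from 62.0 to 3578 RPM with a median of 1009. Uqcr11 had 559 RPM (24.2 to 6741). The Rieske iron-sulfur protein Uqcrfs1, the only nuclear subunit that carries electrons among the 8 listed, had 292 RPM (4.77 to 897). Lowest were Uqcrc1 with 211 RPM (1.3 to 573), Uqcrb with 198 RPM (4.77 to 565) and Uqcrc2 with 85.1 RPM (0 to 432). Uqcrc1 and Uqcrc2 are the core proteins on the matrix side. Uqcrc2 was without a read in 4 cells, and Uqcrc1 had at least 1 read in every cell.

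Complex IV held the highest single values of the set. Ndufa4, long counted with complex I and now placed here, ranged from 209 to 3900 RPM with a median of 1501. Cox6a1, the common isoform of subunit VIa, had 1293 RPM (70.4 to 11799), and Cox6b1, which faces the intermembrane space, had 1280 RPM (42.02 to 14794). Per kilobase they stood at 2461, 2264 and 2072 RPM/kb. Cox4i1, which carries the regulatory site for ATP, had 976 RPM (104 to 3217). The other ubiquitous subunits Cox7a2, Cox6c, Cox7b, Cox8a, Cox5b and Cox5a had medians of 836, 836, 622, 483, 259 and 186 RPM. Cox7a2l, a factor of supercomplexes, had 95.1 RPM (0 to 768).

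In the ATP synthase, 11 of 14 subunits had medians above 500 RPM. Atp5g3, a gene for the membrane c ring, led all 84 genes in RPM with 1732 (69.4 to 3064), or 2395 RPM/kb. Among the F1 subunits, Atp5a1 (alpha) had 1379 RPM (73.4 to 3156), Atp5b (the catalytic beta) 1296 (76.2 to 2344), Atp5d (delta) 895 (6.20 to 2357), Atp5e (epsilon) 754 (59.9 to 2864) and Atp5c1 (gamma, the rotor shaft) 618 (1.75 to 1746). Per kilobase, Atp5a1, Atp5b, Atp5c1 and Atp5d lay close together at 558, 677, 530 and 635 RPM/kb, and Atp5e, the shortest, stood at 1791. Of the peripheral stalk, Atp5f1, Atp5o and Atp5j had medians of 771, 767 and 565 RPM and Atp5h of 238 (8.90 to 1212). Atp5k, subunit e of the membrane part, had 1197 RPM (161 to 4954) and the highest value per kilobase of all, 3226 RPM/kb. Atp5l, subunit g, stood apart with 1.58 RPM (0 to 329). Its 3′ end has near-identical copies in transcripts of 12 other genes, 11 of them pseudogenes, so its level is uncertain. Atp5s, which encodes factor B, had 0.36 RPM (0 to 379).

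Near-identical copies were found for several members. A copy was a stretch of at least 95% identity over at least 100 of the last 300 bases, in a transcript of a gene elsewhere. It need not cover the whole gene. Such a copy was found for 15 of 83 members (18.1%), beside 3.18% of 8816 listed genes. Of 3 subunit genes absent from the table, Cox7c had 3 copies, Atp5g2 had 2 and Ndufs5 had 1. The 14 subunits with a copy had a median of 292 RPM and the 59 without had 476 RPM, but per kilobase both lay close together, at 490 and 481 RPM/kb. Another gene on the same strand overlapped 9 of 83 annotated members and one on the other strand 30, Cox6a2 among them, and counting by strand is not given in the sources used here.

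Several subunits exist as alternative isoforms of different tissues. Cox6a2, the isoform of heart and skeletal muscle (chromosome 7, 128205435 to 128206387, GRCm38), had a median of 0.59 RPM and reached 10 RPM in 13 cells. It made up 0.072% of the RPM of Cox6a1 and Cox6a2 in the median cell and 2.63% of the RPM summed over all cells. In its highest cell, of pool 5, it had 470 RPM from 2198 reads, more than the 1196 reads of the other cells of that pool together. That cell had 0 RPM of Gad1 and Gad2, the enzymes of GABA synthesis, and 329 and 410 RPM of Neurod2 and Neurod6, transcription factors of excitatory neurons. A cell of pool 3 with 168 RPM of Cox6a2 had 213 RPM of Gad1 and 733 RPM of Neurod2. In 4 of the 13 cells the gene had more reads than in the rest of the pool.

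Cox7b2, a second isoform of subunit VIIb (chromosome 5, 71442824 to 71548205), had a read in 9 cells and at least 10 RPM in 6. In a cell of pool 3 it had 593 RPM from 299 reads, beside 592 reads in the other cells of the pool. In a cell of pool 4 it had 297 RPM from 109 reads, where no other cell of the pool had a read of it and the common isoform Cox7b had 5.45 RPM, so that Cox7b2 made up 98.2% of the pair. It exceeded 50% of the pair in these 2 cells. Hemoglobin took 68.8% of the reads in the cell of pool 3 and 11.6% in that of pool 4, and its part in these values was not tested.

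Of the c ring genes, Atp5g1 had 4.39 RPM (0 to 248) and made up 0.30% of the RPM of Atp5g1 and Atp5g3 in the median cell and 1.96% over all cells. It reached 10 RPM in 19 cells and exceeded 50% in 1 cell, with 62.3%. Cox7a2l made up 12.97% of its pair with Cox7a2 and reached 10 RPM in 42 cells. The minor genes Cox6a2, Cox7b2 and Atp5g1 were thus low in most cells and reached 100 RPM in 7, 2 and 4 cells.

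**Figure D3:**
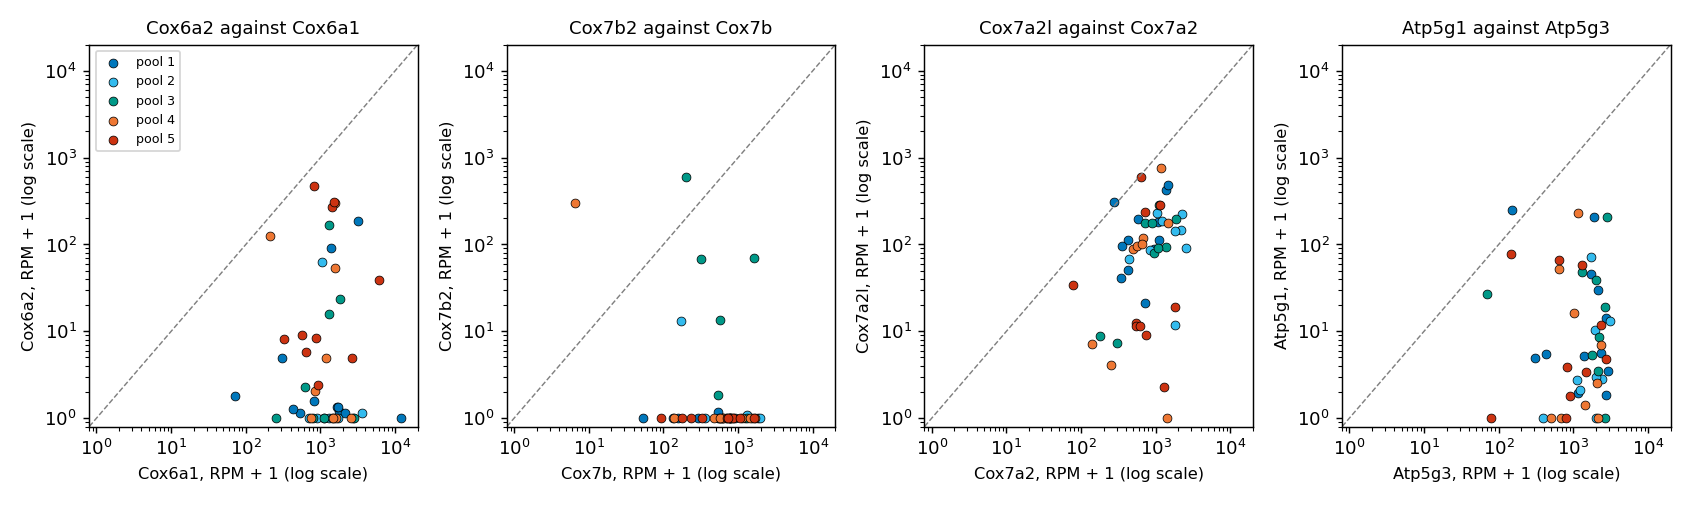
Level of the minor against the major gene of 4 pairs in each of 49 cells (RPM + 1, log scales; 1 point per cell, coloured by library pool; the dashed line marks equal levels). Most cells lie far below the line for Cox6a2, Cox7b2 and Atp5g1, and 2 cells lie above it for Cox7b2.

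The spread of the members between cells was set beside that of all genes and of genes at like levels. The SD of log2(RPM + 1) over cells had a median of 1.85 for the 84 members and of 2.63 for all 9020 genes. Among genes with a median of 100 to 1000 RPM, the 57 members had a median SD of 1.80 and all 1178 genes of 2.29, but the members were also higher there, with a median of 422 RPM beside 200 RPM. In a narrower window of 300 to 600 RPM, chosen after seeing the data, the 18 members had a median SD of 1.76 and all 253 genes of 1.88, at median levels of 490 and 414 RPM. The smallest SDs were those of Cox6c (0.91), Atp5k (0.93), Atp5j2 (0.95), Ndufa4 (0.96) and Atp5e (1.02), which ranked 13 to 23 from the bottom of 3442 genes with a median of at least 10 RPM. Of the 100 genes with the smallest SD, 15 were members, which made up 2.18% of the 3442. The largest SDs among members with a median of at least 10 RPM were 3.18 for Ndufaf5, 3.03 for Ndufaf3, 2.87 for Ndufaf4, 2.86 for Ndufaf2 and 2.80 for Ndufv1, of which 4 are assembly factors. They ranked from 2268 (Ndufv1) to 3333 (Ndufaf5) of the 3442 genes, whose median SD was 2.67. Cox6c varied with a CV of 51.5%, beside 3.63% that counting of reads would give. Over the members the median CV was 86.0% and the median CV that counting of reads would give was 5.76%.

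A few cells carried very high values of single subunits. The cell of pool 1 with library number IL12, which had 225363 reads, held 14794 RPM of Cox6b1, 11799 RPM of Cox6a1 and 6660 RPM of Uqcrh, and Cox6b1 alone was 34.7% of its subunit RPM. Complex IV made up 66.8% of the subunit RPM in that cell, which also held 3292 RPM of the inhibitory neuron markers. The cell IL02 of the same pool had 6741 RPM of Uqcr11 and 6319 RPM of Ndufv3 from 258130 reads. Its astrocyte markers summed to 8124 RPM, the highest of all cells, of which Apoe alone held 8054 RPM. The cell IL08 of pool 5 had 6085 RPM of Cox6a1 from 209850 reads, beside 743 RPM of the inhibitory neuron and 681 RPM of the astrocyte markers. Sst alone held 739 RPM of its inhibitory neuron markers, while Gad1, Gad2 and Lhx6 had 0 RPM. Slc17a7, of the neuron list, had 243 RPM there. These 3 libraries were among the shallowest, and the part of depth and of other cells' RNA in these values was not tested. At the other end, the cell with the lowest sum, IL02 of pool 4, had 1141732 reads, just below the median depth. It also had the highest level of the nuclear RNA Malat1 of all cells, 68722 RPM. The part of either in its low sum was not tested. The cell with 68.8% hemoglobin, IL01 of pool 3, had the second lowest sum, 13912 RPM.

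Members varied together over the cells. Spearman's rho was taken over the 49 cells, which differ in library pool and 168-fold in depth. It had a median of 0.23 over the 3486 pairs of members, of 0.09 over all pairs of listed genes and of 0.05 between a member and another gene. Above 0 were 88.2% of the pairs of members and 70.5% of all pairs. Within complexes the median was 0.36 for V, 0.32 for IV, 0.26 for III, 0.26 for I and 0.11 for II. Pairs of the same complex (0.27) differed little from pairs of different complexes (0.26). In the window of 300 to 600 RPM the median was 0.29 over 153 pairs of members and 0.14 over all pairs. The assembly factors had a median of 0.09 among themselves and of 0.13 with subunits.

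**Figure D4:**
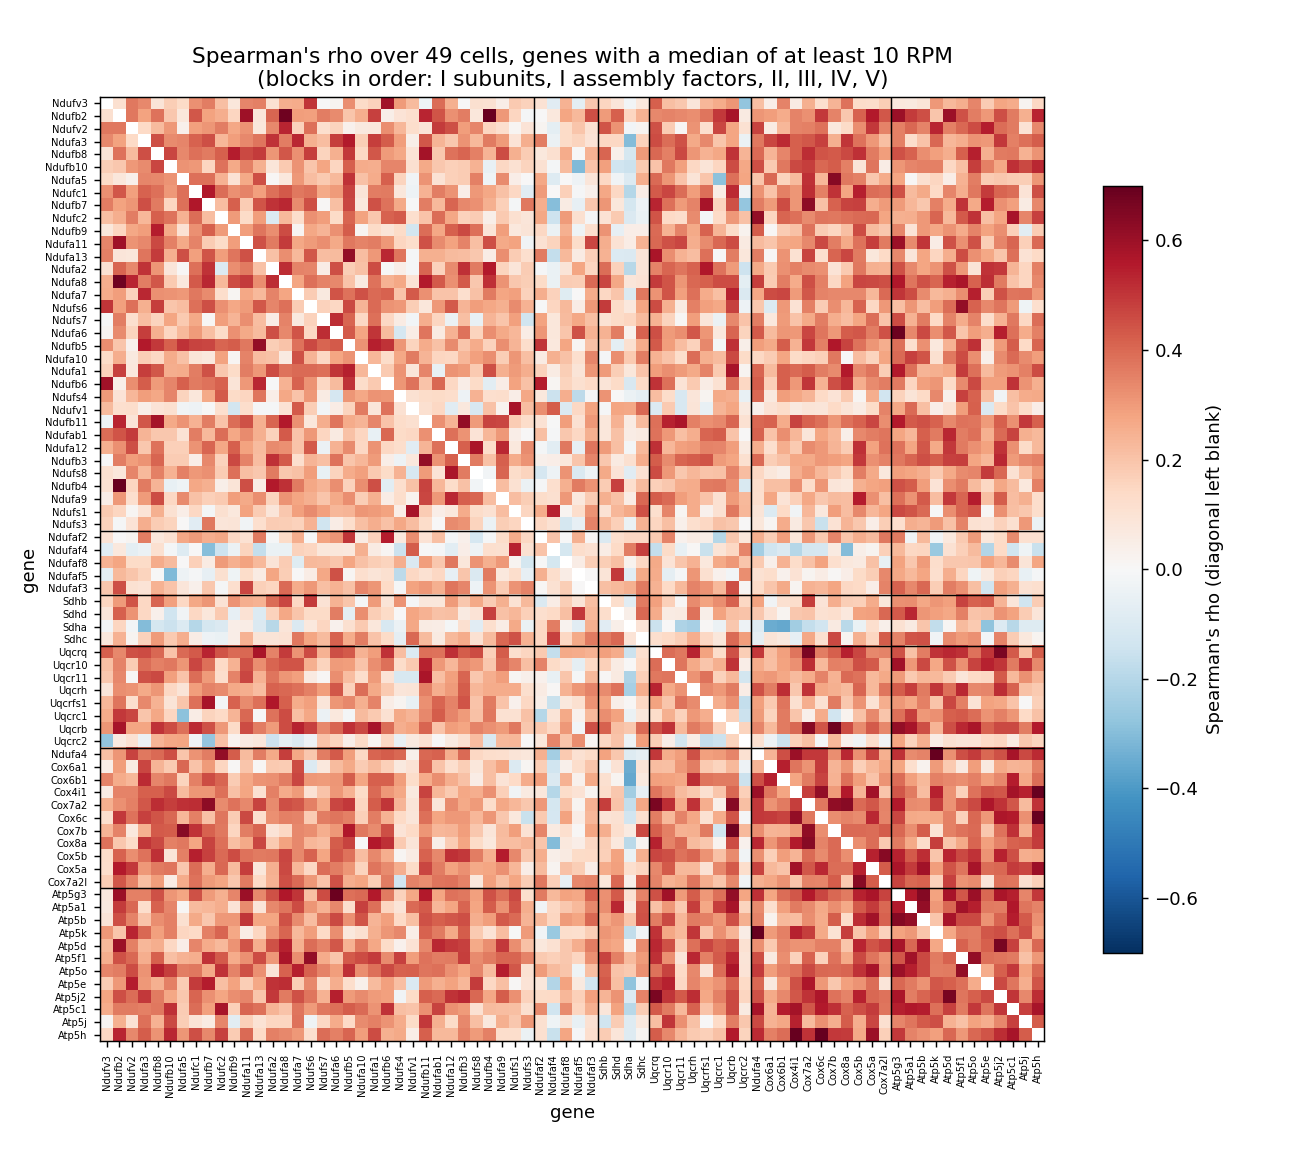
Spearman's rho between 74 genes with a median of at least 10 RPM over 49 cells, in blocks by complex (color scale from -0.7 to 0.7). The blocks of complexes IV and V are the darkest, and Sdha, Uqcrc2 and Ndufaf4 appear as pale or blue bands.

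The highest rho was that of Ndufa4 and Atp5k (0.72), followed by Cox6c and Atp5h (0.71) and by Cox4i1 and Atp5h (0.70), all pairs of a complex IV with a complex V subunit. The promoters of Ndufa4 and Atp5k differed in their motifs, with none of the 3 in the former. The subunits with the highest median rho to the others were Atp5g3 (0.39), Uqcrq (0.38), Atp5o (0.37) and Uqcrb (0.37). The lowest were Cox6a2 (-0.08) and Sdha (-0.04), the latter with a median level of 126 RPM. The sums of complexes I, III, IV and V varied together. The sum of complex I had a rho of 0.73 with that of III, of 0.65 with V and of 0.60 with IV, and 0.21 with II. The sum of complex II had a rho of 0.45 with V and of 0.07 with IV.

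The mitochondrial genome encodes further subunits, of which 7 of 13 are in the table. Their summed level was 624 to 50784 RPM with a median of 7190, beside 12527 to 64815 RPM for the nuclear subunits. The ratio of nuclear to mitochondrial sums was 6.30 in the median cell (0.86 to 53.3). Any reads of the absent subunits are missing from the mitochondrial sum, so the ratio describes the listed subunits only. Of these, mt-Co1 alone belongs to complex IV, mt-Cytb to complex III and the others to complex I, while complex V is not covered. Over cells the sums had a rho of 0.01. Within pools 1 to 5 it was 0.13, 0.07, 0.37, 0.37 and -0.41. By complex, the mitochondrial sum had a rho of 0.24 with complex IV, 0.01 with III, -0.07 with I, -0.21 with V and -0.32 with II. Total reads had a rho of -0.41 with the mitochondrial sum and of 0.47 with that of complex II.

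**Figure D5:**
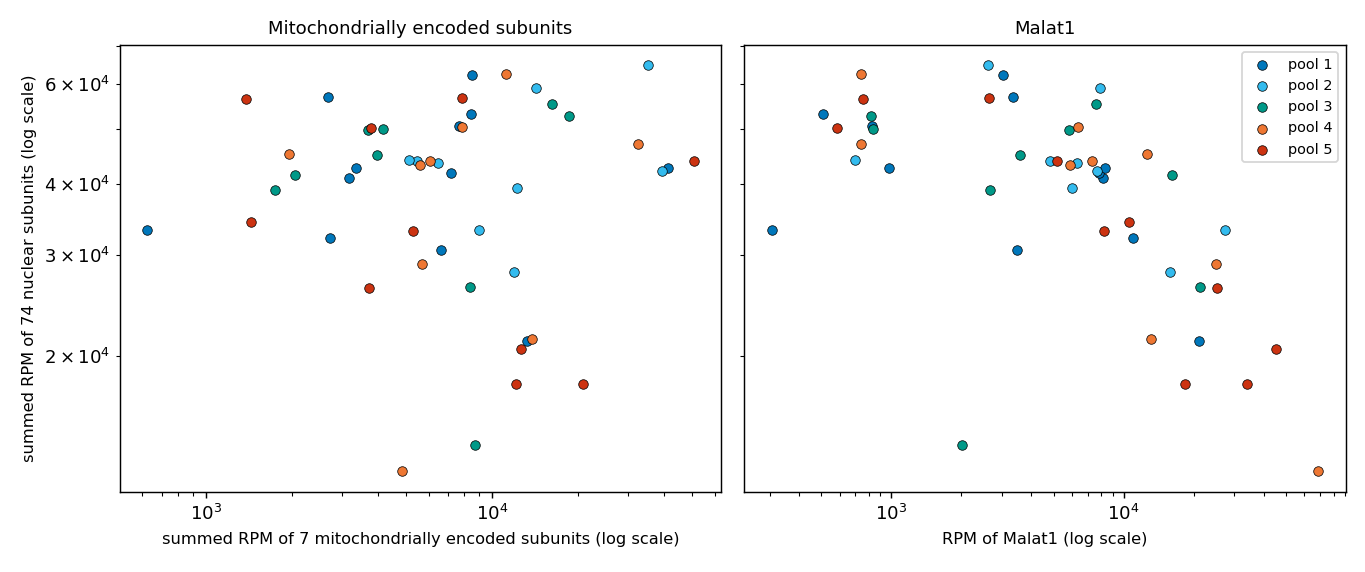
Summed RPM of the 74 nuclear subunits in each of 49 cells against the summed RPM of 7 mitochondrially encoded subunits (left) and the RPM of Malat1 (right), on log scales, coloured by library pool. The left points form no slope (rho 0.01), and the right points fall from upper left to lower right (rho -0.66).

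Among the genes outside the set, those nearest to the sum of subunits over cells were Mrpl33 (0.70), a protein of the mitochondrial ribosome, 2010107E04Rik (0.70), a small protein of the ATP synthase, Tceb2 (0.70), Pomp (0.69), a proteasome maturation protein, Myeov2 (0.68), Romo1 (0.67), Ap2s1 (0.67), Tma7 (0.66), Rpl38 (0.66) and Psmb2 (0.66). At the other end stood Malat1 (-0.66), Meg3 (-0.65) and Grin2b (-0.63). Malat1 and Meg3 are nuclear noncoding RNAs, and Malat1 ranged from 306 to 68722 RPM with a median of 6287. Within pools 1 to 5 the rho of Malat1 with the sum was -0.49, -0.65, -0.23, -0.80 and -0.85. All levels are shares of a cell's reads, so a high share of 1 gene lowers the others. With Malat1 and Meg3 left out of the total the rho was -0.64, but the shares of other RNAs remained in it. Malat1 was picked for the lowest rho among genes outside the set, and the part of shares in it was not tested. The astrocyte list, 6 of whose 7 genes were listed, had a summed level of 0 to 8124 RPM, with Aqp4, Aldh1l1 and Gja1 at a median of 0, and its rho with the subunit sum was 0.41. By gene, the rho was 0.38 for Apoe, which held most of the sum in the highest cell with 8054 RPM, 0.26 for Aldh1l1, 0.16 for Slc1a3, 0.14 for Aqp4, 0.05 for Aldoc and -0.22 for Gja1. The sum of markers had a rho of 0.26 for the oligodendrocyte lineage, 0.20 for microglia, 0.16 for inhibitory neurons, 0.12 for neurons and -0.26 for endothelial cells, where Flt1 was the only gene listed. The part of astrocyte RNA in the levels of the subunits was not tested. The part of nuclear RNA, which Malat1 and Meg3 mark, was not tested either.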

How the data were processed

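Single cells of 1 group (49 cells, 5 library pools) were analysed from the table of RPM that the authors deposited. Per the methods of the study, cDNA was made with a SMART-Seq v4 3′ DE kit and Nextera XT libraries and sequenced in single-end reads of 100 bases. Per the labels and submitters' processing notes, reads were aligned with STAR to mm10 (GRCm38) and counted with HTSeq. The deposited RPM values are reads scaled to 1000000 per cell, and every gene reached at least 100 RPM in at least 2 cells. No column was left unmapped. Versions of STAR and HTSeq are not given in the sources used here.

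The smallest value above 0 in a cell was taken as 1 read, and 100% of the values then lay within 0.01 of whole reads, which gave the depth. Depth ranged from 209850 to 35342325 reads, so shares of 1 read differ between cells, and a limit of 10 RPM was used beside that of 1 read. Statistics were computed in Python 3.11.15 with pandas 2.3.3 and scipy 1.17.1. SDs were taken of log2(RPM + 1). Correlations are Spearman's rho over cells and carry no p-value, since cells of 1 sample are not replicates. No test between groups was possible, and no cell was left out of the main values. The core median of complex I is over the 6 genes reported. Coordinates, transcript lengths and overlaps came from GENCODE vM21, near-identical copies from BLAST 2.17.0, and promoters from the RefSeq table. On simulated reads of 9020 genes with 200 of them correlated at 0, 0.3 and 0.6, the steps gave a median rho of 0.00, 0.27 and 0.61. In these 3 runs, 100%, 98.0% and 98.0% of the read counts were recovered from the smallest value. The share of values at whole reads was 100%, 98.6% and 98.6%, beside 100% in the data.

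The genes and lists were chosen with earlier results of these data known. Values are given for the 3 highest and 3 lowest members of each complex, core and F1 subunits, isoform pairs, the 5 highest and 5 lowest SDs, the 3 closest pairs and the 10 nearest other genes. The values of 1 gene under this rule are not reported here, and it was left out of 2 plots. Alternatives were other limits, pseudocounts of 0.1 and 10, thinning to 358412 reads (44 cells), edgeR 4.0.16 TMM factors on the recovered reads, other totals, and leaving out pools or cells with hemoglobin.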

Additional observations from a re-analysis of the deposited data

How the results depend on the processing

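Of 166 values recomputed under another setting, 153 stayed within 1 SD of the pool values or, for counts and shares, within their limits, and 13 moved. Some could not move, so the 153 do not measure stability. All 84 members passed 100 reads in 2 cells, so that limit left the sums unchanged. All subunits of complexes I to III had a median of at least 10 RPM, so that limit left their rho unchanged. No value moved when a pool was left out, which was judged against the pools themselves. With TMM factors the median sum of all subunits was 34344 RPM and that of complex I 12257 RPM, and the median rho was 0.30 over all members, 0.34 within complex I and 0.38 within complex III. With Pearson's r it was 0.21 within complex IV. Limits of 10 reads and 10 RPM left 21 and 27 members in all cells, in place of 55. The median of the shares per cell was 0.072% for Cox6a2 and 0.30% for Atp5g1. With 1 mismatch allowed, 63.4% of member promoters held NRF1, 85.9% GABP/ETS and 54.9% YY1, beside 26.2%, 62.7% and 54.6% of all genes and 52.7%, 81.0% and 49.3% of listed genes. The cause was not tested, except that looser letters match more often and stricter limits pass fewer genes by construction. Without each library pool in turn, the median sum lay between 42472 and 43628 RPM, the median rho of members between 0.22 and 0.24, the rho with Malat1 between -0.75 and -0.54, and that with the mitochondrial sum, near 0, between -0.04 and 0.14. The settings for Malat1, RPM/kb, the window of 300 to 600 RPM and the promoters of listed genes were chosen after seeing the data. No paired analysis was possible because there was a single group without numbered replicates. Genes with few reads are limited by depth and by reads that may pass between libraries of a pool, and 17 of 49 cells had no read of Cox6a2.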

Other observations

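Other mitochondrial genes were described over the same 49 cells by their rho with the 74 subunits, which had a median of 0.26 among themselves. Partner subunits and proteins whose symbols fall outside the name rule had a median rho of 0.31 with the subunits. By gene it was 0.42 for 2010107E04Rik, 0.41 for Atpif1, 0.39 for Usmg5, 0.26 for Cyc1 and 0.16 for Cycs. Cyc1, cytochrome c1 of complex III, had 378 RPM (5.45 to 1308), and Cycs, cytochrome c, had 143 RPM (0 to 790). Atpif1, the inhibitor of the ATP synthase, had 1634 RPM (90.5 to 4895). All 10 carriers, channels and membrane proteins of the list were in the table, with a median rho of 0.21. Slc25a4, the adenine nucleotide carrier, had 2007 RPM (114 to 3940), and Slc25a5, another carrier of this kind, had 196 RPM (3.09 to 850).

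Of the enzymes of the citric acid cycle, 12 of 13 were listed, with a median rho of 0.14. Mdh2, malate dehydrogenase, had a median rho of 0.38 with the subunits and a level of 806 RPM (17.5 to 2062). Cs, citrate synthase, had a median rho of 0.09 and 153 RPM (0 to 845), and Dld had 0.02 and 70.3 RPM (0 to 572). With the subunit sum, another measure, the rho was 0.60 for Mdh2, -0.08 for Cs and -0.19 for Dld. It was 0.37 for the summed level of the 12 enzymes. Of 39 assembly factors outside the name rule, 28 were listed. Their median level was 4.29 RPM, beside 3.87 RPM over all listed genes, and their median rho was 0.12. The highest was Uqcc2, a factor of complex III, with 305 RPM (2.10 to 1692).

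Regulators of these genes were lower than most subunits. Of 13, 7 were listed, and all 7 had medians below 10 RPM, a level that 38.2% of all 9020 genes reached. The highest was Tfam, a factor of the mitochondrial genome, with 9.45 RPM (0 to 374). Nrf1 had 3.87 RPM (0 to 280), and Ppargc1a, the coactivator PGC-1alpha, had 0.25 RPM (0 to 426).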
